A study of Mus musculus with 12 samples.

Results

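MEFs on day 4 of the OCKS + chem + VA5 + Dnmt1-KD treatment (OCKS-treated MEFs) were set against female primordial germ cells (PGCs) of E15.5 genital ridges, to describe what still separated the treated fibroblasts from germ cells. The comparison takes the 3 arrays titled with the OCKS treatment and the 3 titled E15.5 PGC, chosen by their titles alone, out of 12 arrays in the series. The MEFs were male embryonic fibroblasts on a C57BL6/J background and carried the Vasa::RFP and Oct4_delta_PE-GFP transgenes. They had been lipofected with a tandem vector for Oct4, c-Myc, Klf4 and Sox2 under the CAG promoter and with an siRNA against Dnmt1. "Chem" stands for tranylcypromine, BIX-01294 and DZNep, inhibitors of the histone demethylase LSD1, of the histone methyltransferase G9a and of H3K27 methylation. VA5 stands for VPA, a histone deacetylase inhibitor, and ALK5i, an inhibitor of the TGF-β type I receptor. The PGCs were untreated germ cells of a cross between MCH and C57BL6/J mice and also carried the Oct4_delta_PE-GFP transgene. Whether the treated MEFs were sorted for uptake of the vector, and how the PGCs were separated from the ridge, are not given in the sources used here. Sex, strain, culture and lipofection all differed between the groups, no slide held arrays of both, and their parts cannot be told apart. Control MEFs (3 arrays) are quoted as a starting level and in the distances between arrays. They also entered the estimate of the spread behind each p-value, as did 3 arrays of MEFs treated with Oct4 and Sox2 without c-Myc and Klf4, which are not quoted.

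PGCs are the founder cells of eggs and sperm. In the fetal ovary they stop dividing and enter the prophase of meiosis, in which sister chromatids are held on a protein axis, homologous chromosomes are joined by the synaptonemal complex, and DNA breaks are made and repaired by recombination. Their transposons are kept silent by small RNAs bound to PIWI proteins (piRNAs). Many genes of these programmes have CpG-rich promoters that are methylated in somatic cells, and others are held down by complexes of MAX, MGA and E2F6 that bind E-box and E2F motifs. Fibroblasts are mesenchymal cells that secrete the collagen matrix, contract in response to TGF-β and answer injury and viruses with cytokines.

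Each level below is the log2 of a spot's background-subtracted intensity minus the 75th percentile of its array, so that 0 is the 75th percentile, and a difference is OCKS-treated MEFs minus PGCs on the same log2 scale. The brightest probe stood for each gene, and levels are compared between samples of 1 gene and not between genes. The share of the 43020 spots well above background was 71.9% to 85.6% per array. Genes detected (flagged well above background) on each of the 3 arrays of either group were tested with limma, and a gene was called higher or lower at an adjusted p under 0.001 with at least a 2-fold difference. Where no array of the dimmer group was above background, the fold is a lower bound, with the dim group set at the lowest signal well above background or at the gene's own signal where that was higher. That lowest signal is of the whole array and not of the gene's own probe. The bound holds for this background subtraction only, and normexp background correction gave smaller differences for some dim genes. The p-values rest on the spread between 3 biological replicates per group. In bulk RNA, fewer cells of a type and less RNA per cell cannot be told apart.

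Dnmt1, the maintenance DNA methyltransferase that the siRNA targeted, was at -3.69, -3.08 and -3.38 on the 3 OCKS arrays and at 0.16, 0.00 and 0.07 on the PGC arrays. Control MEFs had -1.07, -0.86 and -1.22, so the groups did not overlap and the OCKS arrays were lowest. OCKS and PGC arrays were also without overlap for 87.7% of all genes tested. The difference from PGCs was -3.46 (SE 0.172, limma adjusted p = 1.26e-08), an 11-fold lower signal. Its partner Uhrf1, which brings the enzyme to replicated DNA, was at 0.48, 1.04 and 0.80 against 2.90, 3.07 and 2.88 in PGCs, a difference of -2.18 (SE 0.172, limma adjusted p = 5.18e-07).

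The labelled cell types were checked against marker genes. Among germ cell markers, Ddx4 (Vasa), an RNA helicase of germ cells, was at 4.65, 4.48 and 4.53 in PGCs and at -2.73, -3.003 and -3.24 in OCKS-treated MEFs, where control MEFs had -2.95, -2.90 and -3.21. Dppa3 (Stella), a PGC marker that guards DNA methylation in the egg, was at -1.32, -2.005 and -1.83 in PGCs and was not well above background on any OCKS array, at least 49.9-fold lower. The fibroblast markers checked were Col1a1, Col1a2, Col3a1, Pdgfra, Prrx1, Twist1, Thy1 and Dcn, and all 8 were higher in OCKS-treated MEFs, while 5 of the 50 tested genes of the wider fibroblast and mesenchyme list were lower. Pdgfra, the receptor for platelet-derived growth factor A, was at 2.85, 4.08 and 3.27 there against -4.07, -3.96 and -3.59 in PGCs. Twist1, a mesenchymal transcription factor, was at 0.55, 0.37 and 0.46 against -4.76, -4.52 and -4.62. The OCKS arrays thus carried the fibroblast markers that their label names and the PGC arrays the germ cell markers. Signal of the germ cell markers Dazl, Mael, Sycp3, Ddx4 and Dnd1 was also above background on all 3 OCKS arrays. Control MEFs had such signal on all 3 arrays for Ddx4, Dnd1 and Dppa3. Mael and Sycp3 had it on 2 control MEF arrays and Dazl on 0. The Y-linked genes Ddx3y, Uty and Kdm5d were above background on all OCKS arrays and on 0 of the 3 PGC arrays, with at least 183-, 18.1- and 2.72-fold higher signals, as the labelled sexes have it. Eif2s3y, another Y-linked gene, was at 2.10, 2.15 and 2.22 against -4.36, -4.38 and -4.12 and was above background on the PGC arrays too. Kdm5d did not pass with normexp background correction, at 0.58.

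Of 17361 genes tested, 4389 (25.3%) were higher in OCKS-treated MEFs, 5938 (34.2%) were lower and 7034 (40.5%) passed neither threshold pair. The whole distribution had a median difference of -0.46, and the share of higher genes among those called was 42.5% with this scaling, 54.1% when arrays were scaled by their median and 61.3% when scaled by RNA spike-ins. More than 10-fold differences were found for 1801 of the higher and 1541 of the lower genes. The OCKS and PGC arrays did not overlap for 15234 genes (87.7%), so a lack of overlap marks out few genes. No OCKS array was above background for 790 of the lower genes (13.3%), and no PGC array for 232 of the higher genes (5.29%). At the other end, the 95% interval of the difference lay within 2-fold for 4011 genes (23.1%). Several probes of a gene were called in opposite directions for 90 of 5034 genes that had more than 1. Of 10037 probes without a gene name that passed the filter, 1260 (12.6%) were higher and 3787 (37.7%) lower.

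**Figure D1:**
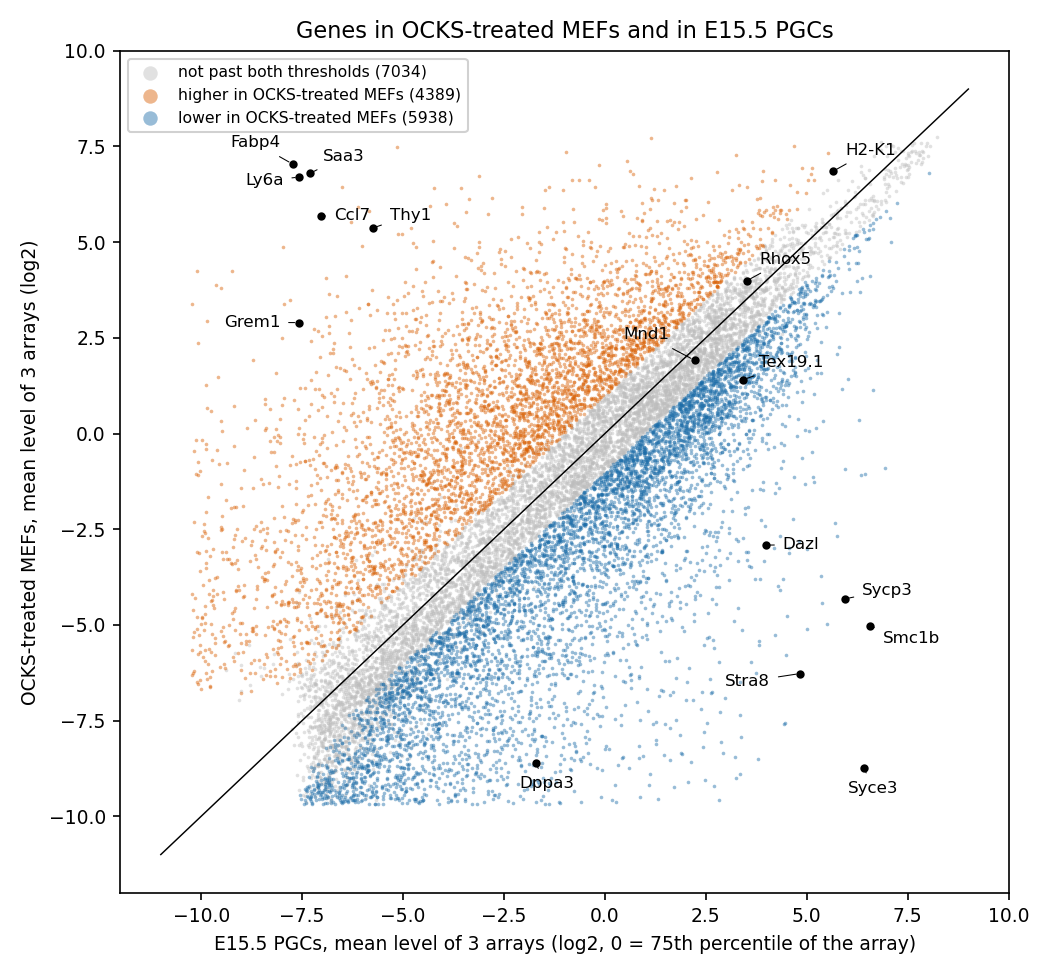
Mean level of each of 17361 genes in E15.5 PGCs (horizontal axis) and in OCKS-treated MEFs (vertical axis), each over 3 arrays on the log2 scale with 0 at the array's 75th percentile; the line marks equal levels. Orange points are the 4389 genes higher in OCKS-treated MEFs, blue points the 5938 lower and grey points the 7034 that passed neither. Saa3, Fabp4 and Ly6a lie in the upper left corner, Syce3, Smc1b and Sycp3 in the lower right, and Rhox5 and Mnd1 near the line.

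The distance between arrays was described by the SD of the log2 difference over 17519 genes. It ran from 2.71 to 2.87 over the 9 pairs of an OCKS and a PGC array. Pairs of a control MEF and a PGC array ran from 2.68 to 2.77, and pairs of an OCKS and a control MEF array from 1.45 to 1.54. Within OCKS-treated MEFs the 3 pairs were at 0.423 to 0.611, and within PGCs at 0.291 to 0.367. Pearson's r across genes, which are not independent replicates, was 0.708 to 0.725 between OCKS and PGC arrays and 0.92 to 0.926 between OCKS and control MEF arrays. By this measure the OCKS arrays were no nearer to the PGC arrays than the control MEF arrays were, and the same PGC arrays enter both ranges. Replicates 2 and 3 of control MEFs and of PGCs shared 1 slide, while no OCKS array shared a slide with a PGC array. Control MEF replicate 1, on another slide than the PGC arrays, was at 2.71 to 2.77 from them. The part of the slide in these distances was not tested.

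**Figure D2:**
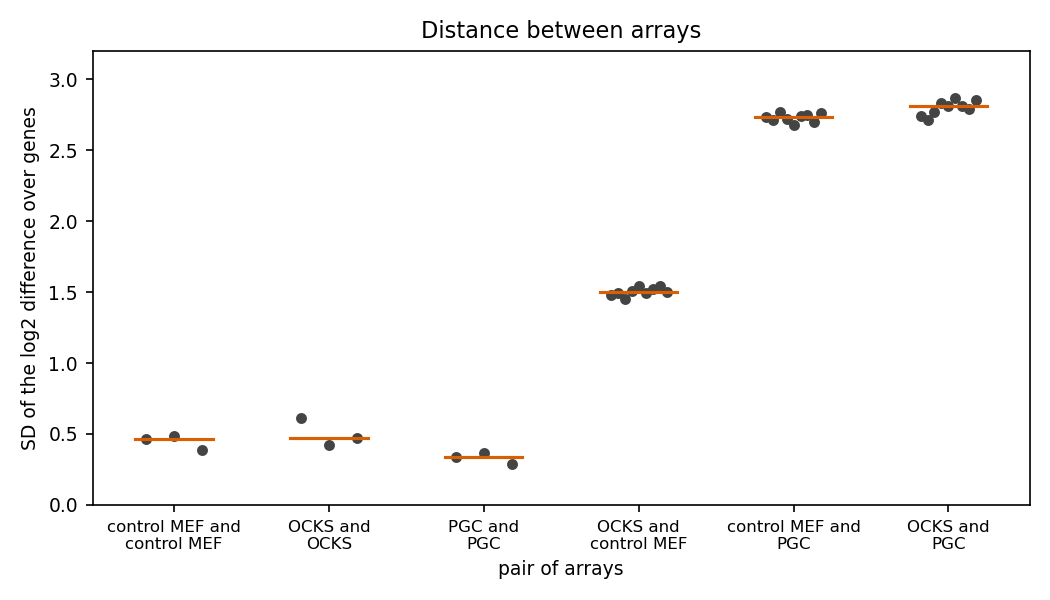
SD of the log2 difference over 17519 genes for each pair of arrays (points), by the groups of the pair, with the median of the pairs as a line. Pairs of OCKS and PGC arrays lie between 2.71 and 2.87, pairs of OCKS and control MEF arrays between 1.45 and 1.54, and pairs within a group at no more than 0.611.

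Meiotic and other germline genes led the shortfalls. Leaving out symbols of predicted genes, the 10 largest among genes past the thresholds and detected on every array of both groups were Smc1b, Mael, Mei1, Sycp3, Sycp1, Spdya, Adad1, Hormad1, Tex11 and Atf7ip2. The lists below were written from general knowledge with earlier results of these data known, and each count stands against the background of 25.3% higher and 34.2% lower among all genes tested, with a median of -0.46. Of 18 genes of the synaptonemal complex and the meiotic chromosome axis, 16 had a probe and were tested. All 16 were lower in OCKS-treated MEFs, with a median difference of -9.33, and 16 were lower under each scaling and background correction tried. Signal was above background on all OCKS arrays for 11 of the 16, and on none for 3.

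The promoters of 6 germline genes are shown because they run from Tex19.1, which was 4.03-fold below its PGC level, to Smc1b, which had the largest shortfall of the genes detected on every array of both groups. They are the 250 bases before the gene start, 5′ to 3′ on the gene's strand, from RefSeq on GRCm38.p6. Capitals mark the E-box CACGTG and the E2F motif GCGGGAA or its complement TTCCCGC, searched on both strands. Sycp1 lies at chr3:102936101-102936350 on the minus strand, Sycp3 at chr10:88459337-88459586 on the plus strand, Smc1b at chr15:85131958-85132207 on the minus strand, Mael at chr1:166238745-166238994 on the minus strand, Dazl at chr17:50293621-50293870 on the minus strand and Tex19.1 at chr11:121145893-121146142 on the plus strand.
Sycp1: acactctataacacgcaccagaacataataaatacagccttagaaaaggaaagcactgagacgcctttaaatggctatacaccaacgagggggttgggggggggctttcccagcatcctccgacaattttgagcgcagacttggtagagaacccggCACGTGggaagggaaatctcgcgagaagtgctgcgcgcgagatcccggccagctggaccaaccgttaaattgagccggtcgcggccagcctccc
Sycp3: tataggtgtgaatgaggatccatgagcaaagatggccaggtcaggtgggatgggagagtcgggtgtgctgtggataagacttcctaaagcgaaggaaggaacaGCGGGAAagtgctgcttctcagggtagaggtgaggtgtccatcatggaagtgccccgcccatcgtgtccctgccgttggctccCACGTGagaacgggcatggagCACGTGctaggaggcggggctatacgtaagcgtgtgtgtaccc
Smc1b: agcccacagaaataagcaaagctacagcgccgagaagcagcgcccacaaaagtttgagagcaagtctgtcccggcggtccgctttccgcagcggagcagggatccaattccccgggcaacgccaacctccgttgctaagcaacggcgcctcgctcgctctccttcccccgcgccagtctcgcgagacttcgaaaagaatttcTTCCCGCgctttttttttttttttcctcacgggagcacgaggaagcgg
Mael: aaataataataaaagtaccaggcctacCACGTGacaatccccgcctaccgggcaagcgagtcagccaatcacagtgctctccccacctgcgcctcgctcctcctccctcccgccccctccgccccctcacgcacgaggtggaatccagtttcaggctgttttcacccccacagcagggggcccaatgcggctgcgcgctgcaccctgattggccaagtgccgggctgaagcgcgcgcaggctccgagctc
Dazl: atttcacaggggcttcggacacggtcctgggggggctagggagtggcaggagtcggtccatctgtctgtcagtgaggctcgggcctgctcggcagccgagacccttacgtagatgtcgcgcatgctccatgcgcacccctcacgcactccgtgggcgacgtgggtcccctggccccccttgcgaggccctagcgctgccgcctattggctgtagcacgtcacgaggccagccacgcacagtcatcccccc
Tex19.1: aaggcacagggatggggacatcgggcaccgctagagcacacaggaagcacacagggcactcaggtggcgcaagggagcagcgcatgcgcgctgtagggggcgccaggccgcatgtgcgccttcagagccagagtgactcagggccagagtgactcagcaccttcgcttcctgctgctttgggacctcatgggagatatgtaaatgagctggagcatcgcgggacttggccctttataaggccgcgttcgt
The Sycp1 window holds 1 E-box, at position -94 from the gene start, and the Mael window 1 at position -223. The Sycp3 window holds 2 E-boxes and 1 E2F motif, and the Smc1b window 1 E2F motif. Neither motif is written in the windows of Dazl and Tex19.1.

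Sycp1, which forms the transverse filaments of the synaptonemal complex, was at -4.22, -5.67 and -5.42 in OCKS-treated MEFs and at 5.16, 4.84 and 4.98 in PGCs, with -9.29, -10.25 and -10.28 in control MEFs. The difference from PGCs was -10.10 (SE 0.437, limma adjusted p = 4.23e-09), a 1096-fold lower signal. Sycp3, a component of the chromosome axis, was at -4.29, -4.43 and -4.23 against 6.14, 5.77 and 5.95, a difference of -10.27 (SE 0.163, limma adjusted p = 1.42e-11). For both genes the highest OCKS array stayed far below the lowest PGC array, although all 3 OCKS arrays were above the control MEF arrays. Smc1b, the meiotic subunit of the cohesin ring, had the largest shortfall of the genes detected on every array of both groups. Its levels were -4.74, -5.22 and -5.13 in OCKS-treated MEFs and 6.79, 6.41 and 6.48 in PGCs, a difference of -11.59 (SE 0.162, limma adjusted p = 9.75e-12).

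Other parts of the same structures were lower as well. Syce1, of the central element between paired chromosomes, was at -2.44, -2.76 and -2.87 against 5.75, 5.60 and 5.87, a difference of -8.43. Stag3, another meiotic cohesin subunit, was at -2.14, -2.44 and -2.45 against 5.70, 5.52 and 5.86, a difference of -8.04. Hormad1, which marks unpaired axes, differed by -9.60. Syce3, a small central element protein, was not above background on any OCKS array and reached 6.48, 6.36 and 6.41 in PGCs, at least 14023-fold higher there. Spata22 and Iho1, which act at recombination sites and in break formation, were likewise without OCKS signal, with PGC signals at least 908- and 876-fold higher. The nearest members were Rec8, the meiotic cohesin clamp, at -0.91, -2.0 and -1.44 against 2.14, 1.64 and 1.73, and Syce2 at -1.09, -0.72 and -0.95 against 5.98, 5.83 and 6.04. Rec8 differed by -3.29 and Syce2 by -6.87, and control MEFs had -1.66, -1.35 and -1.34 and -0.66, -0.62 and -0.67, so neither gene was above its control level on all OCKS arrays.

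**Figure D3:**
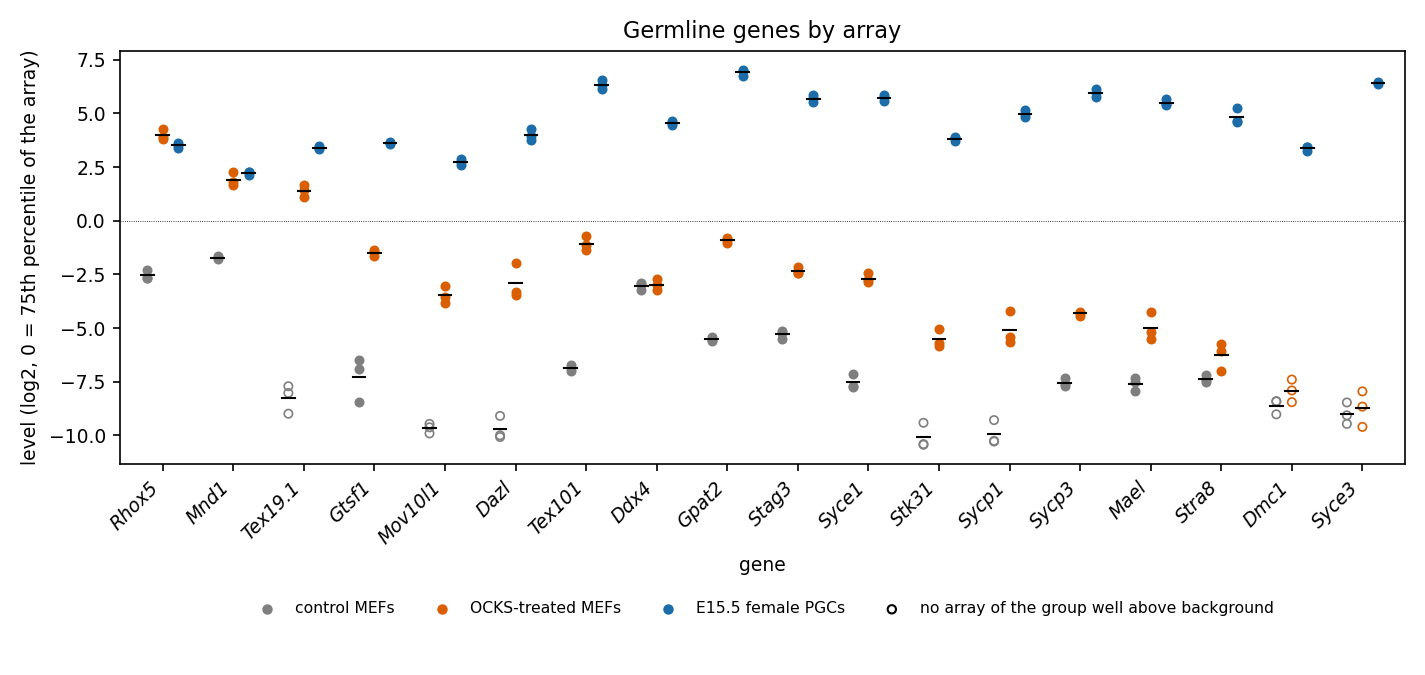
Levels of 18 germline genes on each array (points; log2, 0 = 75th percentile of the array) in control MEFs, OCKS-treated MEFs and E15.5 PGCs, with group means as lines; open points mark groups in which no array was well above background. Rhox5 and Mnd1 of the OCKS arrays lie near the PGC points. Dazl, Gpat2 and Sycp3 lie between the control MEF and PGC points, and Dmc1 and Syce3 of the OCKS arrays are open.

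Genes of meiotic entry and recombination were lower almost throughout. Of 43 genes listed, 34 had a probe and were tested, 0 were higher and 33 lower, with a median of -6.31 (-6.18 with undetected genes at their bound). All 34 had PGC signal on every array, and 20 had OCKS signal on every array. The others entered the test only through the PGC arrays, where they were high. With detection required on all arrays of both groups, 19 were lower. Stra8, the retinoic acid target that starts meiosis, was at -6.08, -6.99 and -5.75 in OCKS-treated MEFs, above background on 2 of the 3 arrays, and at 5.27, 4.60 and 4.63 in PGCs. Its difference was -11.10 (SE 0.353, limma adjusted p = 4.94e-10). Dmc1, the meiotic strand-exchange recombinase, and Spo11, which cuts DNA to start recombination, gave no signal on any OCKS array. Their PGC levels of 3.46, 3.25 and 3.42 and 1.99, 2.07 and 2.12 were at least 1701- and 683-fold higher. Meioc, which holds germ cells in meiotic prophase, was at least 2258-fold higher in PGCs. Prdm9, the histone methyltransferase that places recombination hot spots, was at -3.31, -3.37 and -3.32 against 3.95, 3.78 and 4.07, a difference of -7.27 (SE 0.120, limma adjusted p = 1.52e-11).

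Mei1, needed for meiotic breaks, was at -5.83, -5.70 and -5.87 against 4.50, 4.32 and 4.65 in PGCs, and its control MEF level of -5.83, -5.49 and -5.38 overlapped that of the treated cells. Tex11, an X-linked recombination factor, was at -4.80, -5.48 and -5.51 against 4.27, 4.16 and 4.20, and all 3 OCKS arrays were above the control MEF range of -8.21, -8.95 and -9.86. Mnd1, the partner of Hop2 in strand exchange, was the 1 member of the list that did not pass. It was at 2.28, 1.66 and 1.79 on the OCKS arrays and at 2.27, 2.26 and 2.14 on the PGC arrays, with -1.71, -1.66 and -1.79 in control MEFs. The OCKS and PGC values overlapped, and the difference was -0.31 (95% interval -0.70 to 0.08, limma adjusted p = 0.116), within 2-fold on both sides.

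In the list for the piRNA pathway and other RNA regulation of germ cells, 33 of 35 genes had a probe and 32 were tested. None was higher and 31 were lower, with a median of -5.18 (-5.12 with bounds), and 8 of the 31 had no signal on any OCKS array. Signal was on all OCKS arrays for 24 of the 32, and the others were tested only through the PGC arrays. Mael, which helps piRNAs silence transposons, was at -4.25, -5.51 and -5.19 in OCKS-treated MEFs against 5.66, 5.41 and 5.45 in PGCs, with -7.93, -7.51 and -7.33 in control MEFs. Its difference of -10.49 (SE 0.293, limma adjusted p = 2.27e-10) was a 1442-fold lower signal. Gtsf1, which binds PIWI complexes, was at -1.37, -1.44 and -1.63 against 3.60, 3.67 and 3.63, a difference of -5.12. Mov10l1, the helicase that binds piRNA precursors, was at -3.05, -3.85 and -3.53 against 2.60, 2.73 and 2.88, a difference of -6.21. Control MEFs had -8.44, -6.91 and -6.48 for Gtsf1 and -9.46, -9.91 and -9.62 for Mov10l1, so the OCKS arrays lay between the other groups.

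Gpat2, an acyltransferase needed for piRNA production, was at -0.81, -0.89 and -1.02 against 7.05, 6.76 and 6.99, a difference of -7.83. Piwil2, a PIWI protein, was at -5.13, -5.38 and -5.73 against 0.70, 0.73 and 0.79, a difference of -6.15. Stk31, a Tudor-domain kinase of the germline, was at -5.05, -5.70 and -5.82 against 3.85, 3.72 and 3.89, a difference of -9.34. Tdrd5 and Boll, a Tudor protein and a relative of Dazl, had no OCKS signal and were at least 351- and 357-fold higher in PGCs, and Tdrd1 at least 14.3-fold. The smallest differences belonged to Tudor genes that control MEFs expressed too. Tdrd3 was at 0.12, 0.47 and 0.31 against 0.79, 0.70 and 0.61 and did not pass, with a difference of -0.40 (95% interval -0.68 to -0.12). Tdrd7 was at 2.78, 2.37 and 2.59 against 3.95, 3.71 and 3.78 and was lower by the main scaling, at -1.23, but did not pass when arrays were scaled by the median (-0.79) or by spike-ins (-0.57).

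Of 28 genes of PGC specification and maintenance, 27 were tested, 4 were higher and 14 lower, with a median of -1.22 (-1.15 with bounds). With normexp background correction 9 were lower. Dazl, the RNA-binding protein that licenses germ cells to enter meiosis, was at -1.97, -3.33 and -3.44 in OCKS-treated MEFs and at 4.26, 3.75 and 3.96 in PGCs, with -9.09, -9.99 and -10.07 in control MEFs. Its difference was -6.90 (SE 0.442, limma adjusted p = 9.36e-08), a 120-fold lower signal, and the OCKS arrays spread over more than 1 log2 unit. Kit, the receptor that keeps PGCs alive, was at -5.47, -5.27 and -4.98 against 0.57, 0.85 and 0.73, a difference of -5.96. Tfap2c, a specification factor, was above background on 2 of the 3 OCKS arrays, at -5.88, -7.27 and -6.36, against -2.08, -2.43 and -2.43. Prdm14, which opens the PGC programme with Prdm1, had no OCKS signal, and PGCs were at least 4.51-fold higher. It did not pass with normexp background correction, at -0.66. Prdm1 (Blimp1) itself was at -3.55, -2.89 and -3.31 against -1.84, -2.19 and -2.05 and passed in the main analysis with -1.22 (limma adjusted p = 0.000332). That call was lost when OCKS replicate 1 or 3 or PGC replicate 1 or 3 was left out, with differences of -1.07, -1.20, -1.13 and -1.23. It was also lost with quantile normalization (-0.943), normexp background correction (-0.711), median scaling (-0.785) and spike-in scaling (-0.562). The replicate block, the fit of the OCKS and PGC arrays alone and the unmoderated statistic lost it too, at the same difference.

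In that list the 95% interval lay within 2-fold for 3 of the 27 genes tested (11.1%), against 23.1% of all genes tested. Dnd1, an RNA-binding protein that protects PGCs, was at -1.64, -1.51 and -1.63 against -1.95, -2.11 and -2.20, a difference of 0.49 (95% interval 0.19 to 0.80) that did not pass the thresholds. Nanos3, which keeps migrating PGCs alive, was at -1.57, -1.61 and -1.66 against -0.73, -0.64 and -0.56, a difference of -0.97 just short of 2-fold. Its 95% interval of -1.16 to -0.78 reached beyond 2-fold, and it passed at -1.02 without PGC replicate 1. Control MEFs had -0.32, -0.25 and -0.38, above both groups.

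Of 30 genes of oocyte development, 28 had a probe and 27 were tested. None was higher and 19 were lower, with a median of -3.55 (-2.84 with bounds). Signal was on all OCKS arrays for 16 of the 27, and the others were tested only through the PGC arrays. With detection required in both groups, 11 were lower. Leaving out OCKS replicate 2 or replicate 3 of the MEFs treated with Oct4 and Sox2 gave 1 higher member, and quantile, median or spike-in scaling gave 2. Figla, which switches on zona pellucida genes, was not above background in OCKS-treated MEFs and reached 2.82, 2.59 and 2.69 in PGCs, at least 1069-fold higher. Nobox, an oocyte homeobox factor, was at least 99.6-fold higher in PGCs. Sohlh1, a factor of early oocyte growth, was at -6.38, -6.42 and -6.23 against 0.38, 1.30 and 0.86, and Ybx2, which stores mRNA in germ cells, was at -3.29, -3.66 and -3.37 against 2.51, 2.90 and 3.13. The differences were -7.19 and -6.29, and both groups of arrays were clear of each other, as they were for 87.7% of all genes tested.

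Most X-linked germline genes were lower, and the 95% interval lay within 2-fold for 1 of 23 (4.35%), against 23.1% of all genes tested. Of 29 listed, 24 had a probe and 23 were tested, with 0 higher and 21 lower and a median of -4.84 (-4.71 with bounds). Signal was on all OCKS arrays for 14 of the 23, and the others were tested only through the PGC arrays. With detection required in both groups, 12 were lower. Rhox5 (Pem), a reproductive homeobox gene, was at 4.27, 3.79 and 3.92 on the OCKS arrays, at 3.63, 3.40 and 3.52 on the PGC arrays and at -2.29, -2.69 and -2.65 in control MEFs. Its difference of 0.48 (95% interval 0.12 to 0.84, limma adjusted p = 0.0178) did not pass the thresholds, though all 3 OCKS arrays were above the PGC arrays. Rhox6 and Rhox9 of the same cluster were at -3.06, -3.56 and -3.56 and at -2.86, -3.32 and -3.69 in OCKS-treated MEFs, against 1.56, 1.44 and 1.46 and 2.58, 2.28 and 2.37 in PGCs. Their differences were -4.88 and -5.71, so members of 1 cluster stood at unlike distances. Tex16 and Tktl1 had no OCKS signal and were at least 1154- and 1673-fold higher in PGCs.

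Tex19.1, a germline protein that protects meiotic chromosomes and restrains retrotransposons, was at 1.43, 1.67 and 1.11 in OCKS-treated MEFs and at 3.38, 3.50 and 3.35 in PGCs, with -8.99, -7.71 and -8.02 in control MEFs. It remained 4.03-fold lower than in PGCs, a difference of -2.01 (SE 0.304, limma adjusted p = 0.000104). The call was lost with spike-in scaling, at -1.35, and with the deposited log2 values, at -1.98, where the PGC group held only 1 array. Tex101, a germ cell surface protein, was at -1.35, -0.72 and -1.13 against 6.56, 6.16 and 6.32, a difference of -7.42.

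The other genes of the 10 largest shortfalls had no place in these lists. Spdya, which activates the meiotic kinase CDK2 at telomeres, was at -6.17, -6.32 and -6.28 against 4.10, 3.42 and 3.67, and Adad1, a germ cell RNA-binding protein, was at -6.24, -6.75 and -6.52 against 3.36, 3.28 and 3.42. Atf7ip2, a germline partner of the H3K9 methyltransferase SETDB1, was at -6.83, -6.54 and -6.90 against 2.75, 2.53 and 2.69. Their differences were -9.99, -9.86 and -9.41. The OCKS arrays overlapped those of control MEFs for Spdya and Adad1 and were below them for Atf7ip2, which had -5.63, -6.08 and -6.39 in control MEFs. Ccnb3, a cyclin of meiosis, had no OCKS signal and was at least 1566-fold higher in PGCs.

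The motif content of promoters was counted as a description. In the 250 bases before the gene start, the E-box was in 6.02% of 32851 promoters of the table and in 7.57% of 17201 promoters of genes tested. It was in 7.77% of promoters of genes higher in OCKS-treated MEFs and in 7.34% of those of genes lower. The E2F motif was in 3.82% of all promoters, 5.83% of those tested, 4.93% of the higher and 7.02% of the lower. Of the 80 genes of the synaptonemal, meiotic and piRNA lists that were lower in OCKS-treated MEFs, 65 had 81 promoters in the table. The E-box was in 24 of these (29.6%), the E2F motif in 14 (17.3%) and either in 33 (40.7%). The median observed over expected CpG ratio was 0.374 over all promoters and 0.630 over genes tested. It was 0.299 for lower genes without OCKS signal and 0.726 for lower genes with signal on all 3 OCKS arrays, and 0.286 for higher genes without PGC signal. For the 81 promoters of the list genes it was 0.717, and both motifs contain a CpG.

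Pluripotency factors were mostly lower. All 32 listed were tested, 5 were higher and 22 lower, with a median of -2.94 (-2.59 with bounds). Endogenous and vector-borne transcripts could not be separated for the transfected factors, because the place of their probes relative to the coding sequence is not known here. Pou5f1 (Oct4) was at -5.68, -6.86 and -5.69 on the OCKS arrays, against -2.21, -2.40 and -2.30 in PGCs and -7.49, -6.93 and -6.32 in control MEFs, a difference from PGCs of -3.77 (SE 0.391, limma adjusted p = 4.97e-06). Sox2 was at -3.10, -5.50 and -3.62 against -4.58, -5.29 and -5.45, with overlapping groups and a difference of 1.03 (95% interval -0.42 to 2.49). Klf4 was at 2.42, 3.15 and 2.53 against -0.29, -0.54 and -0.37, a difference of 3.102, and Myc at 1.21, 2.25 and 1.89 against -5.46, -5.84 and -5.79, a difference of 7.48. Control MEFs already had 2.79, 2.87 and 3.09 for Klf4 and 0.54, 0.35 and 0.56 for Myc, so for these genes the MEF arrays of both kinds were above the PGC arrays.

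Lin28b, which blocks let-7 maturation, was above background on 2 of the 3 OCKS arrays, at -6.19, -8.43 and -6.15, against 2.94, 2.95 and 3.01 in PGCs. Lin28a, its paralogue, was at -2.58, -2.78 and -2.77 against 0.17, 0.17 and 0.43, a difference of -2.96. Zfp42 (Rex1), a marker of the naive state, was above background on 1 OCKS array and at 0.71, 0.50 and 0.56 in PGCs. Cdh1, the epithelial cadherin that PGCs keep, was at -5.25, -6.86 and -5.74 against -2.14, -2.04 and -2.15, a difference of -3.85. Klf5 and Nanog stood apart from these. Klf5 was at -1.19, -1.48 and -1.45 against -1.57, -1.27 and -1.30, with a difference of 0.01 (95% interval -0.30 to 0.32), and Nanog at -2.42, -2.29 and -2.30 against -2.11, -1.75 and -1.82, with a difference of -0.45 (95% interval -0.73 to -0.16). Both intervals were within 2-fold, and for Nanog the control MEF arrays were above both groups, at -1.56, -1.45 and -1.54.

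The other side of the gap was somatic. By the same ranking, the 10 largest excesses were Saa3, Slpi, Ly6c1, Spp1, Efemp1, Anxa8, Thy1, Prl2c5, Gda and Ccl2. Slpi, a secreted inhibitor of leukocyte proteases, was at 6.52, 6.30 and 6.49 in OCKS-treated MEFs against -6.76, -6.42 and -6.34 in PGCs, with -1.67, -1.36 and -0.88 in control MEFs. Spp1 (osteopontin), a secreted matrix and inflammation protein, was at 6.04, 5.75 and 5.98 against -5.62, -6.04 and -6.72, a difference of 12.05 (SE 0.276, limma adjusted p = 7.46e-11). Efemp1 (fibulin 3), of elastic matrix, was at 5.55, 5.55 and 5.46 against -5.998, -6.13 and -6.78, and the annexin Anxa8 at 5.70, 5.97 and 5.76 against -5.85, -5.89 and -5.80. In control MEFs Anxa8 was already at 5.34, 5.07 and 5.30. Among genes without PGC signal the largest bounds belonged to Cxcl5, Serpina3n, Mmp3, Ifi211 and Gpnmb. Ifi211, an interferon-inducible gene, was at least 3606-fold higher, and Gpnmb, a lysosomal glycoprotein, at least 3399-fold.

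Fibroblast genes had the same direction. Of 51 genes of fibroblast and mesenchyme identity, all had a probe and 50 were tested, 42 were higher in OCKS-treated MEFs and 5 lower, with a median of 4.44 (4.32 with bounds). The lower count was 3 without OCKS replicate 2 or 3 or PGC replicate 2 or 3. The summed linear level of the list ran from 400 to 458 times the 75th percentile on the OCKS arrays, 464 to 599 in control MEFs and 10.2 to 11 in PGCs. Thy1, a surface protein of fibroblasts, was at 4.95, 5.84 and 5.31 against -5.67, -5.96 and -5.62 in PGCs, a difference of 11.12 (SE 0.228, limma adjusted p = 4.69e-11). Prrx1, a limb and mesenchyme homeobox factor, was at 2.85, 2.496 and 2.58 against -7.31, -6.85 and -6.34, a difference of 9.47. Ly6a (Sca-1) was at 6.70, 6.79 and 6.61 against -7.12, -8.13 and -7.46, above background on 2 of the 3 PGC arrays. S100a4 (fibroblast-specific protein) differed by 9.93, and Ddr2, a collagen receptor kinase, by 9.24. In the opposite direction Gli1, a target of Hedgehog signalling, was at -6.95, -6.62 and -6.38 against -3.12, -2.87 and -2.91, a difference of -3.68.

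Collagens and their processing enzymes gave 30 of 36 tested genes higher and 0 lower, with a median of 4.36, and 1 was lower without PGC replicate 1. Col1a1 was at 3.79, 5.17 and 4.25 against -0.32, 0.16 and 0.18, a difference of 4.40 (SE 0.322, limma adjusted p = 2.8e-07), and control MEFs had 6.64, 6.18 and 6.25. Col1a2, the partner chain of type I collagen, was at 5.90, 6.66 and 5.88 against 0.96, 1.14 and 1.31, and Col3a1, of reticular fibres, at 3.997, 6.06 and 4.59 against -0.45, -0.31 and -0.35. All 3 chains were far above the PGC arrays, and Col1a1 and Col1a2 were below every control MEF array. Lox, which cross-links collagen, had no PGC signal and was at -1.64, 0.10 and -1.34 in OCKS-treated MEFs, at least 125-fold higher, against 3.39, 3.42 and 3.42 in control MEFs. Of other extracellular matrix genes, 42 of 45 were tested, 37 were higher and 0 lower, with a median of 5.34. Mmp3 (stromelysin), a matrix protease, had no PGC signal and was at least 4585-fold higher. Vcan, a large proteoglycan, was at 2.84, 3.76 and 3.25 against -5.94, -5.66 and -6.70, and Dcn (decorin) at 6.31, 7.19 and 6.38 against -0.64, -0.95 and -0.34. The cartilage proteoglycan Acan did not pass, with a difference of 0.06 (95% interval -0.17 to 0.28).

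Most genes of the TGF-β response and smooth muscle contraction were higher. All 28 with a probe were tested, 19 were higher and 2 lower, with a median of 3.71 (3.36 with bounds). Tagln (SM22), an actin-binding protein of contractile cells, was at 1.87, 0.22 and 1.0 on the OCKS arrays, 0.47, 0.30 and 0.37 on the PGC arrays and 7.86, 7.20 and 7.33 in control MEFs. The OCKS and PGC values overlapped, with a difference of 0.65 (95% interval -0.15 to 1.45). Myl9, the regulatory myosin light chain, was at 2.33, 0.76 and 1.17 against 1.77, 1.81 and 1.24, with a difference of -0.18 (95% interval -0.95 to 0.58). The Myl9 interval lay within 2-fold on both sides and the Tagln interval did not, and in both genes OCKS replicate 1 was the highest. Cnn1 (calponin) was at -1.53, -4.91 and -3.40 against -1.91, -1.68 and -1.75. Its difference of -1.50 did not pass with all arrays, and passed at -2.38 without OCKS replicate 1.

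Other TGF-β targets stayed above the germ cells. Ccn2 (CTGF) was at 1.04, -0.03 and 0.36 against -2.77, -3.67 and -3.10, with 6.68, 6.43 and 6.28 in control MEFs and a difference from PGCs of 3.63 (SE 0.279, limma adjusted p = 4.17e-07). Thbs1 (thrombospondin 1), which activates latent TGF-β, was at 2.86, 4.15 and 3.39 against -3.001, -3.46 and -4.04, a difference of 6.97. The ligand Tgfb2 was at 2.84, 3.83 and 3.26 against -3.23, -3.10 and -3.23, a difference of 6.50. Skil (SnoN), a feedback inhibitor of SMAD proteins, was below the germ cells, at -2.70, -2.90 and -2.69 against -0.02, -0.07 and 0.00, a difference of -2.73. The receptor Tgfbr1 (ALK5) was at 0.64, 0.78 and 0.59 against 2.12, 1.88 and 2.04, lower by the main scaling at -1.34 and not past the thresholds with median scaling, at -0.90, or spike-in scaling, at -0.68.

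Hox genes, which record position along the body, were mostly higher in the fibroblasts. Of 39 genes with a probe, 38 were tested, 27 were higher and 3 lower, with a median of 2.76. Hoxa11 was at 1.59, 1.73 and 1.86 against -6.56, -6.69 and -6.76 in PGCs, a difference of 8.40 (SE 0.122, limma adjusted p = 1.17e-11). Hoxa10 differed by 5.76 and Hoxb4 by 5.53. Hoxd1 ran the other way, without OCKS signal and at least 55.9-fold higher in PGCs, and Hoxd8 was at -2.29, -1.79 and -2.24 against 1.05, 1.16 and 1.11. Hoxa3 was at -1.88, -1.98 and -1.82 against -1.85, -1.84 and -1.90, a difference of -0.03 (95% interval -0.35 to 0.29).

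**Figure D4:**
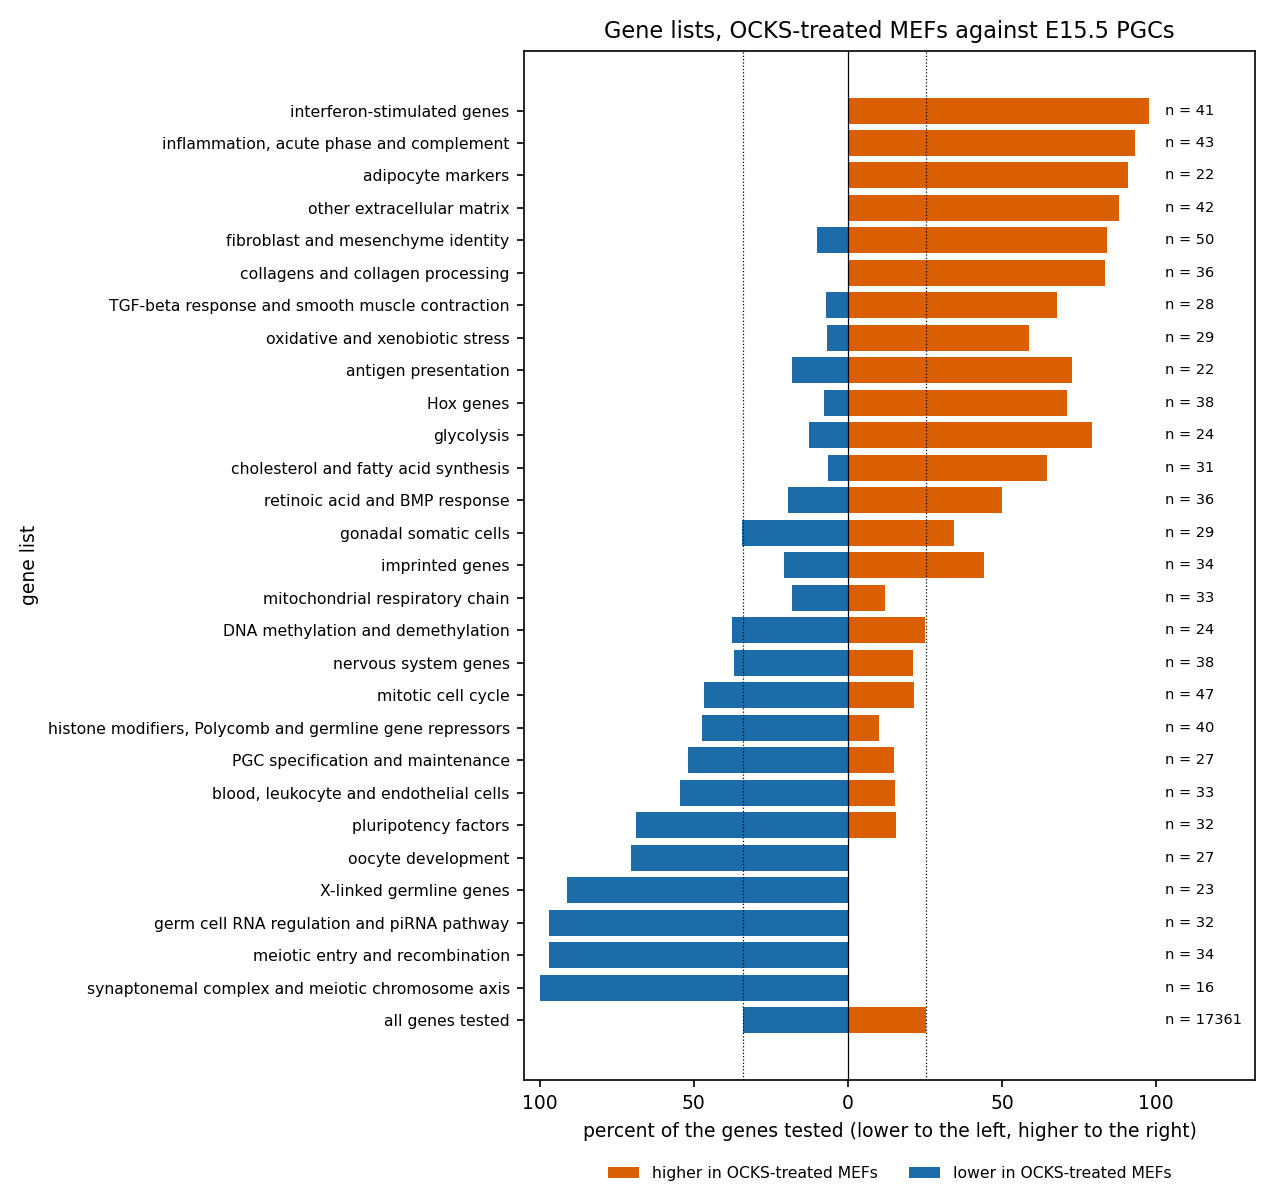
Percent of the tested members of each gene list that were higher (orange, to the right) or lower (blue, to the left) in OCKS-treated MEFs than in PGCs, ordered by the median difference, with the number tested; the last bar and the dotted lines give all genes tested, 25.3% higher and 34.2% lower. Interferon-stimulated genes (40 of 41 higher) stand at the top and synaptonemal complex genes (16 of 16 lower) at the bottom of the ordered lists.

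The innate immune genes were higher almost without exception. Of 42 interferon-stimulated genes with a probe, 41 were tested, 40 were higher and 0 lower, with a median of 7.47. Ifit1, which binds foreign RNA, was at 3.22, 3.55 and 3.37 in OCKS-treated MEFs and at -8.02, -7.63 and -8.17 in PGCs, above background on 1 PGC array, with -2.63, -1.34 and -1.54 in control MEFs. Ifit3 was at 3.55, 3.79 and 3.59 against -6.50, -6.72 and -7.31, a difference of 10.49 (SE 0.229, limma adjusted p = 5.75e-11). Isg15, a ubiquitin-like modifier, was at 6.40, 6.46 and 6.45 against -0.35, -0.17 and -0.25, and Irf7, the factor that amplifies interferon production, at 2.06, 2.37 and 1.88 against -7.22, -6.71 and -6.29. The chemokine Cxcl10 was at 5.16, 5.49 and 5.42 against -4.47, -4.69 and -5.26, a difference of 10.16. In each of these genes the lowest OCKS array was above all control MEF and PGC arrays. Sp100, a nuclear body protein, was the 1 member that did not pass, with a difference of 0.52, and it passed with quantile scaling, at 1.03, or spike-in scaling, at 1.19.

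Inflammation, acute phase and complement genes were alike in direction. All 43 were tested, 40 were higher and 0 lower, with a median of 6.83, and 6 of the 40 had no PGC signal. Saa3, an acute phase apolipoprotein, was at 6.19, 7.51 and 6.70 on the OCKS arrays and at -6.75, -7.55 and -7.58 on the PGC arrays, with -5.13, -5.64 and -4.95 in control MEFs. Its difference was 14.10 (SE 0.368, limma adjusted p = 1.57e-10). Lcn2 (lipocalin 2), which binds bacterial siderophores, was at 6.52, 6.02 and 6.68 against -3.89, -3.49 and -3.35, and Hp (haptoglobin) at 6.41, 6.999 and 6.75 against -3.29, -3.05 and -3.02. The monocyte chemokine Ccl2 was at 6.36, 6.45 and 6.40 against -4.08, -4.13 and -4.51, and control MEFs already had 4.68, 4.75 and 4.95. Cxcl5, a neutrophil chemokine, and Serpina3n, a protease inhibitor, had no PGC signal and were at least 7171- and 4591-fold higher. Cxcl13, a B cell chemokine, was at 0.08, 1.11 and 0.80 in OCKS-treated MEFs and not above background on any control MEF or PGC array, at least 385-fold higher than in PGCs. Relb, a subunit of NF-κB, was near its PGC level, at 0.40, 0.56 and 0.64 against 0.90, 0.57 and 0.82, with a difference of -0.23 (95% interval -0.51 to 0.05).

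Antigen presentation genes were mostly higher. All 22 genes were tested, 16 were higher and 4 lower, with a median of 2.85. Spike-in scaling left 2 lower. Psmb8, of the immunoproteasome, was at 3.72, 3.81 and 3.74 against -6.01, -5.25 and -6.04, and Nlrc5, the activator of class I genes, at 1.92, 2.20 and 2.22 against -6.71, -6.36 and -7.35. The light chain B2m was at 6.81, 6.80 and 6.72 against 0.93, 0.62 and 0.54, a difference of 6.08. The heavy chain gene H2-K1 was at 6.63, 7.02 and 6.89 against 5.78, 5.44 and 5.71, a difference of 1.21 (SE 0.167, limma adjusted p = 5.35e-05), and H2-D1 differed by 1.31. H2-Q4, another class I gene, was lower, at 4.96, 4.82 and 4.81 against 6.26, 6.30 and 6.20, a difference of -1.39 that did not pass with median scaling, at -0.95, or spike-in scaling, at -0.73. The class II gene H2-Ab1 was lower, at -2.81, -2.03 and -2.39 against 3.86, 3.90 and 4.16, a difference of -6.38, while the class II invariant chain Cd74 was at -5.84, -5.76 and -6.04 against -5.45, -5.29 and -5.31 and did not pass. The mice differed in strain at these polymorphic genes, and what the strain did to the probe signal was not tested.

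**Figure D5:**
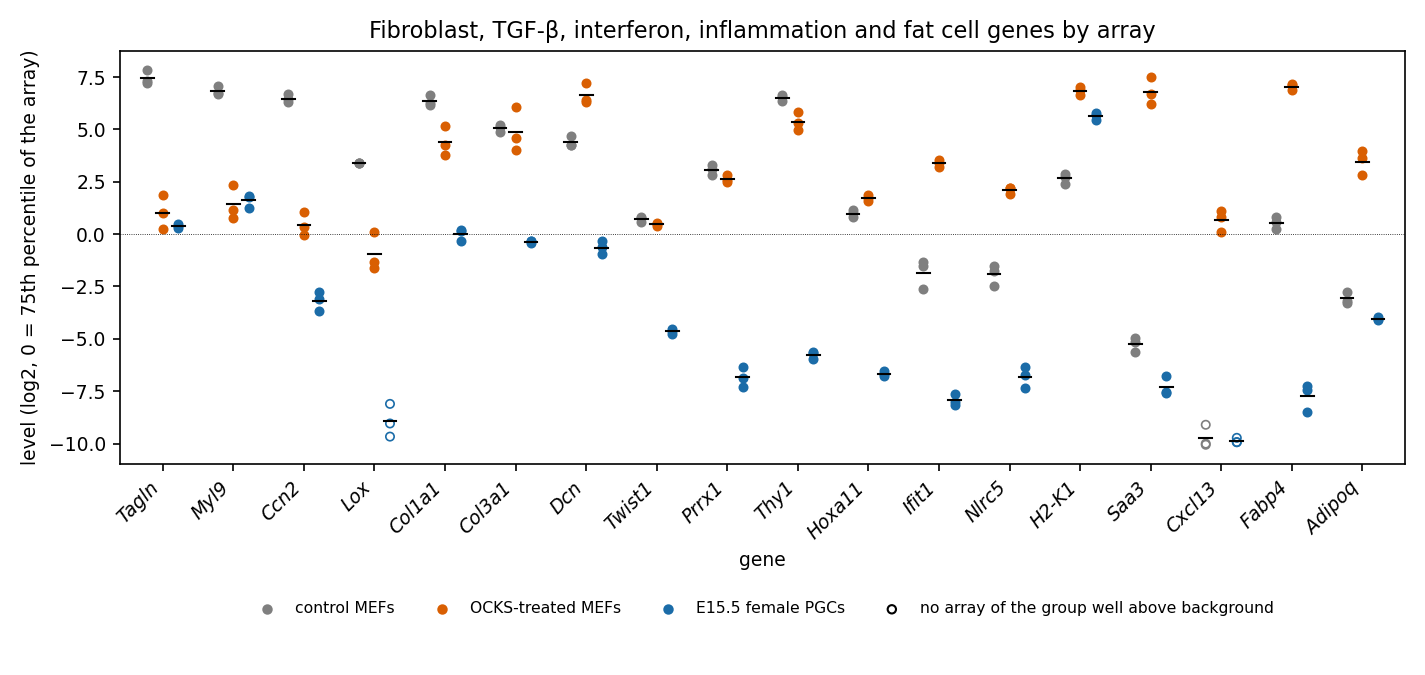
Levels of 18 somatic genes on each array (points; log2, 0 = 75th percentile of the array) in control MEFs, OCKS-treated MEFs and E15.5 PGCs, with group means as lines; open points mark groups in which no array was well above background. The OCKS points of Tagln and Myl9 overlap the PGC points. The OCKS means of Col3a1, Twist1, Prrx1 and Hoxa11 lie within 1 log2 unit of the control MEF means. Ifit1, Saa3, Cxcl13, Fabp4 and Adipoq of the OCKS arrays lie above both other groups.

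The fat cell programme also separated the groups. All 22 adipocyte markers were tested, 20 were higher and 0 lower, with a median of 5.87. Fabp4, which carries fatty acids in fat cells, was at 7.15, 6.87 and 7.10 in OCKS-treated MEFs and at -7.45, -7.25 and -8.50 in PGCs, above background on 2 PGC arrays, with 0.83, 0.57 and 0.23 in control MEFs. Adipoq (adiponectin) was at 3.64, 2.81 and 3.95 against -4.05, -4.09 and -3.97, a difference of 7.50 (SE 0.465, limma adjusted p = 7.18e-08). Plin1 (perilipin), which coats lipid droplets, was at 3.42, 2.53 and 3.50 against -5.05, -5.03 and -5.004, and Cidec, which fuses them, at 3.28, 1.70 and 3.18 against -7.39, -7.24 and -7.01. Pparg, the factor that drives the programme, was nearer to its PGC level, at 3.33, 3.13 and 3.35 against 1.96, 1.70 and 1.95. Its difference of 1.40 (SE 0.234, limma adjusted p = 0.000216) lost the call without OCKS replicate 1 (1.37), OCKS replicate 3 (1.36) or PGC replicate 2 (1.32). Dgat2, the last enzyme of triglyceride synthesis, was at 4.64, 3.42 and 4.88 against 3.83, 3.91 and 4.08, with overlapping groups and a difference of 0.37 (95% interval -0.42 to 1.17).

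In cholesterol and fatty acid synthesis all 31 genes were tested, 20 were higher and 2 lower, with a median of 1.88. Scd1, which desaturates fatty acids, was at 2.78, 2.03 and 3.07 against -6.29, -6.29 and -6.43, a difference of 8.96 (SE 0.257, limma adjusted p = 2.7e-10). Acaca, the carboxylase that starts fatty acid synthesis, was lower, at 1.91, 1.87 and 1.94 against 4.53, 4.45 and 4.65, a difference of -2.64. Of 24 glycolysis genes, 19 were higher and 3 lower, with a median of 2.34. Ldha (lactate dehydrogenase A) was at 3.80, 3.67 and 3.67 against -1.53, -1.47 and -1.85, a difference of 5.33 (SE 0.111, limma adjusted p = 5.02e-11), and Hk1 (hexokinase 1) at 4.45, 3.60 and 3.98 against -1.09, -1.08 and -1.34. Pfkfb3, which sets the pace of glycolysis, differed by 6.26, and Gapdh by 1.82. Eno3, the muscle enolase, was lower, at -1.82.

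The mitochondrial respiratory chain did not share that direction. Of 33 genes tested, 4 were higher and 6 lower with a median of -0.09, and the balance turned to 8 higher and 2 lower with median scaling and to 12 higher and 1 lower with spike-in scaling. Those scalings moved all 17361 genes as well, to 5287 higher and 4492 lower and to 5629 higher and 3549 lower. The 95% interval lay within 2-fold for 18 of the 33 (54.5%), against 23.1% of all genes tested. Ndufb5, a complex I subunit, was at 3.94, 3.93 and 4.02 against 4.11, 3.88 and 3.94, with a difference of -0.02 (95% interval -0.25 to 0.21). Cox8a, a cytochrome oxidase subunit, was at 6.28, 6.35 and 6.43 against 3.08, 3.26 and 3.105, a difference of 3.21, and Ndufa1, an X-linked subunit, at 4.92, 4.94 and 5.13 against 7.27, 6.95 and 7.05, a difference of -2.09. Ppargc1a, a coactivator of mitochondrial biogenesis, differed by 5.82.

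Of 29 genes of oxidative and xenobiotic stress, 17 were higher and 2 lower, with a median of 3.57. Cyp2f2, a cytochrome P450, was at 5.04, 5.16 and 5.43 in OCKS-treated MEFs, -4.98, -4.97 and -5.42 in PGCs and -6.79, -7.09 and -6.95 in control MEFs. Mt2, a metallothionein, was at 7.83, 7.76 and 7.55 against 1.14, 1.49 and 0.77, and Nqo1, an NRF2 target, at 0.86, -0.26 and 0.85 against -6.10, -6.16 and -6.61. Slc7a11, the cystine transporter, had no PGC signal and was at least 47.1-fold higher. Gclm, of glutathione synthesis, was lower at -1.62, and did not pass with spike-in scaling, at -0.96. Prdx1, an abundant peroxidase, was at 5.29, 4.55 and 5.10 against 4.92, 4.80 and 4.67, with a difference of 0.18 (95% interval -0.23 to 0.60).

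Cell cycle genes went both ways. Of 47 tested, 10 (21.3%) were higher and 22 (46.8%) lower, against 25.3% and 34.2% of all genes tested, with a median of -0.81. With spike-in scaling, which also raised the higher count of all genes, 13 were higher and 15 lower. The cell cycle inhibitor Cdkn1a (p21) was at 3.79, 3.72 and 3.85 against -3.42, -3.34 and -3.49, a difference of 7.20 (SE 0.081, limma adjusted p = 4.83e-12), and Cdkn2b (p15) was at 3.96, 3.56 and 3.95 against -1.87, -1.96 and -1.99. The D-type cyclins Ccnd1 and Ccnd2, which start the cycle in somatic cells, differed by 5.94 and 6.06. All 4 were far above the PGC arrays, and control MEFs had 4.34, 4.40 and 4.47 for Cdkn1a. Lower genes included Bub1, of the spindle checkpoint, at -2.36, -2.09 and -2.32 against 4.03, 3.70 and 3.89, and Mcm5, of the replicative helicase, at 0.57, 0.48 and 0.32 against 4.49, 4.43 and 4.72. Mki67 (Ki-67) was at 1.60, 1.78 and 1.48 against 4.74, 4.55 and 4.80, a difference of -3.08. Cdk1, the mitotic kinase, was at 0.05, 0.38 and 0.18 against 0.24, 0.21 and 0.07, with a difference of 0.03 (95% interval -0.29 to 0.35), and Aurka at 1.29, 1.47 and 1.43 against 1.41, 1.49 and 1.38, with -0.03 (95% interval -0.33 to 0.27).

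Of the chromatin genes, 24 of DNA methylation and demethylation were tested. Of these, 6 (25%) were higher and 9 (37.5%) lower with a median of -0.27, near the 25.3% and 34.2% of all genes tested. With spike-in scaling 9 were higher and 5 lower with a median of 0.40. The same scaling moved all 17361 genes to 5629 higher and 3549 lower with a median of 0.198, so the turn was not particular to this list. Hells (LSH), a remodeller needed for DNA methylation, was at -3.22, -3.27 and -3.21 against 2.96, 2.59 and 2.62, a difference of -5.96 (SE 0.205, limma adjusted p = 8.33e-10), and Dnmt3b, a de novo methyltransferase, was at -2.22, -1.59 and -1.85 against 0.19, 0.33 and 0.17. Dnmt3l, its cofactor, was higher, at -2.98, -2.65 and -2.98 against -4.91, -4.79 and -4.54, a difference of 1.88. Of 40 histone modifiers, Polycomb genes and repressors of germline genes, 4 were higher and 19 lower with a median of -1.001, or 5 and 12 with spike-in scaling. Ezh2, the H3K27 methyltransferase, was at -0.67, -0.34 and -0.52 against 1.85, 1.71 and 1.80, a difference of -2.30 (SE 0.110, limma adjusted p = 9.39e-09). Its paralogue Ezh1 was at 2.61, 2.75 and 2.78 against 3.79, 3.73 and 3.87, a difference of -1.09 that did not pass with median scaling, at -0.65, or spike-in scaling, at -0.42.

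The repressors of germline genes did not stand together. Mga, the scaffold that joins MAX to Polycomb-like complexes, was at -1.84, -1.66 and -1.83 against 1.17, 0.95 and 1.02, a difference of -2.82, and its partner Pcgf6 at -0.81, -0.997 and -1.04 against 2.41, 2.15 and 2.17, a difference of -3.20. L3mbtl2, another member of the complex, differed by -2.05. E2f6, which brings the complex to E2F motifs, was higher, at 2.21, 2.06 and 2.10 against 0.76, 0.83 and 0.63, a difference of 1.38 (SE 0.103, limma adjusted p = 3.26e-07). Max was at 2.98, 3.14 and 3.05 against 2.16, 2.13 and 2.17, a difference of 0.90 that was short of 2-fold and passed with median scaling, at 1.34, or spike-in scaling, at 1.56. Setdb1 and Suv39h1, methyltransferases of H3K9, were lower at -3.65 and -3.88. Ehmt2 (G9a), the target of BIX-01294, was higher at 1.21, and Kdm1a (LSD1), the target of tranylcypromine, was at 1.81, 2.19 and 2.08 against 2.95, 2.73 and 2.79, a difference of -0.80 that did not pass. Atf7ip, the partner of SETDB1, differed by 0.30 (95% interval 0.07 to 0.52).

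Imprinted genes are expressed from 1 parental copy in somatic cells, and their imprints are erased in PGCs. They gave 15 higher and 7 lower of 34 tested, with a median of 0.66. Meg3, a maternally expressed RNA, was at 3.75, 4.28 and 4.02 against -0.18, 0.12 and 0.20, a difference of 3.97 (SE 0.145, limma adjusted p = 1.25e-09), and Dlk1, its paternally expressed neighbour, at 5.29, 5.84 and 5.45 against 1.40, 1.81 and 1.92. Igf2, a fetal growth factor, was at 0.78, 0.83 and 0.66 against -2.37, -3.24 and -3.04, a difference of 3.64. Rasgrf1, a paternally expressed exchange factor, was lower, at -6.47, -5.95 and -6.53 against -1.56, -1.36 and -1.25, a difference of -4.93. Cdkn1c (p57) was at 3.58, 3.48 and 3.57 against 3.54, 3.06 and 2.80, with overlapping groups and a difference of 0.41 (95% interval -0.04 to 0.85), and Peg3 overlapped too, with -0.54 (95% interval -1.27 to 0.19).

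Among 36 genes of the retinoic acid and BMP response, 18 were higher and 7 lower, with a median of 1.02. Cyp26b1, which breaks down retinoic acid, was at 4.12, 5.41 and 4.66 in OCKS-treated MEFs and at -2.48, -2.71 and -2.66 in PGCs, a difference of 7.35 (SE 0.262, limma adjusted p = 1.05e-09), with 1.24, 1.36 and 1.41 in control MEFs. Crabp1, which binds retinoic acid in the cytoplasm, was at 5.16, 5.27 and 5.37 against -1.40, -1.76 and -1.71, and Grem1, an antagonist of BMPs, was at 3.23, 2.44 and 3.02 against -7.74, -7.15 and -7.86, above background on 1 PGC array. These somatic genes stood far above the PGC arrays, where the retinoic acid target Stra8 was far higher. The receptor Bmpr1a was at 0.86, 1.11 and 1.02 against 1.03, 0.86 and 0.82, with a difference of 0.09 (95% interval -0.11 to 0.30).

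Markers of the other cells of a genital ridge were counted beside these results. Of 29 genes of gonadal somatic cells tested, 10 (34.5%) were higher in OCKS-treated MEFs and 10 (34.5%) lower, with a median of 0.83. The lower share was near the 34.2% of all genes tested, of which 25.3% were higher. With detection required in both groups, 6 of the list were lower. The summed linear level of the list was 59.7 to 74.8 on the OCKS arrays, 37.1 to 42.8 on the PGC arrays and 95.3 to 101 in control MEFs, and 29 of 30 genes were above background on all PGC arrays. The brightest probes weigh most in such a sum, and Foxl2, given below, made up a large part of it in PGCs. Amhr2, the receptor for anti-Müllerian hormone, was at -3.49, -4.23 and -3.81 against 1.58, 1.78 and 1.20, a difference of -5.36 (SE 0.210, limma adjusted p = 2.04e-09). Wt1, of supporting cells and their precursors, was at -2.80, -2.99 and -3.27 against 0.49, 0.74 and -0.12, and Inha (inhibin alpha) differed by -3.73. Sox9, a factor of Sertoli cells and cartilage, ran the other way, at -0.71, -0.90 and -0.53 against -7.21, -7.49 and -7.61. Foxl2, a factor of granulosa cells, was at 4.70, 5.06 and 5.01 against 4.62, 4.43 and 4.46 with 4.41, 4.36 and 4.45 in control MEFs, a difference of 0.43 that passed only with spike-in scaling, at 1.09.

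Of 33 genes of blood, leukocyte and endothelial cells, 5 were higher in OCKS-treated MEFs and 18 lower, with a median of -1.34. Spike-in scaling left 9 lower, and detection required in both groups left 10 lower. The summed level was 19.9 to 20.8 on the OCKS arrays, 28.7 to 35.8 on the PGC arrays and 42.3 to 45.8 in control MEFs. The adult β-globin Hbb-bt had no OCKS signal and was at 0.94, 1.31 and 0.36 in PGCs, at least 300-fold higher. The α-globin Hba-a1 was at -3.55, -5.86 and -4.67 against 0.71, 1.23 and 0.40, a difference of -5.47. Tyrobp, an adaptor of myeloid cells, was at -6.07, -5.83 and -6.58 against -2.37, -1.85 and -3.61, with 1.18, 0.30 and 1.30 in control MEFs. Signal of gonadal and blood markers was thus present on the PGC arrays, and its part in the differences above was not tested. Nervous system genes gave 8 (21.1%) higher and 14 (36.8%) lower of 38 tested, near the 25.3% and 34.2% of all genes tested. Their median was -0.76, and 7 were higher and 7 lower with normexp background correction. Nefh, a neurofilament chain, was above background on 1 OCKS array and at 1.89, 1.83 and 1.98 in PGCs, and Syn1 (synapsin I) was at -2.82, -4.04 and -3.45 against 2.62, 2.46 and 2.74. Gap43, of growing axons, was higher, at 0.95, 1.23 and 0.99 against -7.21, -6.59 and -6.58, a difference of 7.85.

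Genes of the X chromosome were shifted relative to the autosomes. Of 679 X-linked genes tested, 151 (22.2%) were higher in OCKS-treated MEFs and 330 (48.6%) lower, with a median difference of -1.20. Over 16670 autosomal genes the median was -0.45, with 25.4% higher and 33.6% lower, and single autosomes had medians from -0.63 to -0.15 and lower shares from 29.1% to 35.8%. Without the germline list, 656 X-linked genes had a median of -1.10 and 47.1% were lower. The X median stood -0.75 from that of the autosomes with the main scaling. Scaling by the median or by spike-ins shifts all genes of an array alike and cannot change this distance. It was -0.55 with quantile normalization and -0.20 with normexp background correction. Xist, the RNA that silences 1 X in female somatic cells, was at -3.57, -3.79 and -4.18 on the OCKS arrays, -3.93, -3.60 and -4.02 on the PGC arrays and -7.16, -7.43 and -7.57 in control MEFs. The OCKS and PGC values overlapped, with a difference of 0.01 (95% interval -0.64 to 0.65), although the MEFs are labelled male and the PGCs female. Sex cannot be told apart from the other differences between the groups.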

How the data were processed

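Gene expression was measured with 12 single-colour Agilent mouse arrays on 6 slides, 3 biological replicates for each of 4 groups, from 100 ng of total RNA. The authors deposited the scanner's intensity of each spot after background subtraction, not normalized between arrays. They also deposited a log2 value table, used as an alternative, of whose 12 columns 2, of PGC replicates 2 and 3, disagreed with the scanner files of their samples and were not used, which left 1 PGC array in that alternative. The normalization and the test behind the published comparisons are not given in the sources used here. On each array the deposited intensity had a 75th percentile of 1147.4 to 2924.8, the median background was 23 to 33.5, and 0 spots were saturated. The number of arrays limits the precision.

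An uneven spot on some array led to the removal of 92 of 39429 non-control probes. RefSeq accessions named 25983 of the other 39337 through 19711 genes and left 13354 without a name. The log2 intensity minus the array's 75th percentile was tested in R 4.3.3 by limma 3.58.1, with all 12 arrays in 1 fit, no covariates and Benjamini-Hochberg adjustment over the 17361 genes tested. The brightest probe stood for a gene. Python 3.11.15 with matplotlib 3.10.9, numpy 2.4.6 and pandas 2.3.3 made the tables and plots, and the test was tried on simulated arrays.

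The members and the 29 gene lists (958 entries, 922 with a probe, 906 tested) were chosen with earlier results of these data known. Named genes were those the study follows, and the 10 higher and 10 lower with the largest difference among genes past both thresholds, detected on every array of both groups and without overlap. Next came the 5 in each direction with the largest bound among genes with no signal in the dimmer group, and Xist and the Y genes. From each list up to 4 members in each direction and the 2 nearest were eligible. Symbols of predicted genes were left out, some genes that met these rules are not reported here, and other list members are examples chosen after their values were seen.

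Alternatives tried were quantile normalization, normexp (offset 50) with quantile normalization, scaling by the median, by probes detected on all arrays or by 8 spike-in probes, other filters on dim probes, other ways to join a gene's probes, a fit of only 6 arrays, a block for the replicate number or for the slide, the deposited table, other thresholds, an unmoderated statistic, and leaving out each array in turn. Promoters are RefSeq sequences on GRCm38.p6.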

Additional observations from a re-analysis of the deposited data

How the results depend on the processing

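The count of lower genes fell from 5938 to 3549 with spike-in scaling and to 3415 at a 4-fold minimum. The median difference of all genes moved from -0.464 to -0.174 with quantile normalization, to -0.092 with normexp background correction and quantile normalization, to -0.025 with median scaling, to -0.335 without a filter on dim probes and to -0.264 with a filter on both groups, and it turned to 0.198 with spike-in scaling, so the balance of higher and lower genes depends on the scaling. Leaving out single arrays gave 4254 to 4428 higher and 5471 to 5966 lower genes and a median of -0.512 to -0.436. With the replicate number as a block 4321 genes were higher and 5794 lower, and the numbers did not pair the samples (correlations of -0.125, -0.0302 and -0.0644). With the slide as a random block 4332 were higher and 5688 lower, and the deposited log2 values gave 3975 and 4607, from 1 PGC array only, which was assumed to vary like the other groups. Of the 200 genes named, 177 kept their call and direction under every alternative in which they were compared. Another 23 changed their side of a threshold under at least 1, and 0 turned. Of the 29 alternatives, the fit of every probe as a feature was not compared by gene. Genes that failed a filter were not compared under that alternative. Many named genes were chosen for large differences in the main analysis, so these counts do not describe all genes tested. Of 58 counts over the gene lists, 28 moved by more than 1.5-fold under at least 1 alternative. The cause was not tested, except that filters and thresholds change which genes can be counted. Dim signals limit the bounds for genes near background.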
